A study of Homo sapiens with 3 samples.

Results

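The aldo-keto reductases were followed in 3 RNA sequencing libraries of cells labelled Hep3B, a human hepatocellular carcinoma line. They are 10 genes, AKR1A1, AKR1B1, AKR1B10, AKR1C1, AKR1C2, AKR1C3, AKR1C4, AKR1D1, AKR7A2 and AKR7A3, of 19862 genes in the table of expression values. The family was selected on its values in these same libraries, where several members differed from the control, so the comparisons below describe the members and carry no test. All 10 were found by Ensembl identifier. The values are FPKM as calculated by the authors, a level per transcript length and per size of the library.

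Each group held 1 library. The control is titled with the words NT and Empty and its treatment label names only Fugene, the transfection reagent. The HKR3 library came from cells given a pcDNA3.1 plasmid that encodes HKR3, an older name of the zinc finger protein ZBTB48. The library labelled siTERT came from a transfection labelled siTERT, a small interfering RNA aimed at TERT, the catalytic subunit of telomerase. All groups share Fugene transfection, medium with 10% serum and a change to fresh medium after 6 h. What nucleic acid, if any, the control received and when the cells were harvested are not stated in the labels. Each group being a single library, there is no replicate error to compare a difference with. The intervals given below cover counting error only and say nothing of how another culture would vary.

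Aldo-keto reductases are NADPH-dependent enzymes, most of which reduce aldehydes and ketones to alcohols. The liver uses them to detoxify reactive aldehydes, to inactivate or interconvert steroid hormones and to make bile acids. Several of their genes, mainly AKR1B10 and the AKR1C genes, are known targets of NRF2, the transcription factor of the antioxidant response, and AKR1B10 is known for its high level in many liver cancers.

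The labels were checked first. ZBTB48 was at 4.91 FPKM in the control, 2842 with HKR3 and 4.89 under the siTERT label. TERT was at 4.69, 4.25 and 5.37 FPKM in the same order, so the targeted mRNA was not reduced under the siTERT label, and directions drawn from that library belong to its label only. All 10 liver-lineage markers, albumin and alpha-fetoprotein among them, were expressed, with a summed level of 12009 FPKM in the control, 8482 with HKR3 and 11880 under the siTERT label. Of 7 blood cell markers 3 reached 1 FPKM, LYZ, CD14 and CD68, and the other 4, PTPRC among them, stayed at or under 0.0465 FPKM; the sum was 431, 243 and 441 FPKM. Of the 8 stromal and endothelial markers with values, 0 reached 1 FPKM, with sums of 0.170, 0.133 and 0.238. The part of these marker differences in the results was not tested, and in bulk RNA fewer cells of a type and less RNA per cell cannot be told apart. The FPKM of all genes summed to between 535516 and 596536, and the number of fragments, estimated from the worth of 1 fragment in weakly expressed genes, was between 1.02e+07 and 1.13e+07 per library.

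The 4 AKR1C genes lie side by side on chromosome 10, and 2 of them are near copies. The coding sequences of AKR1C1 and AKR1C2, each of 969 bases, differ at 19 bases and are 98.0% identical, and their longest stretch without a difference is 186 bases. AKR1C1 is 91.4% identical to AKR1C3 and 88.5% identical to AKR1C4. Of the 31-base words in the protein-coding transcripts of AKR1C2, 58.7% also occur in AKR1C1. A fragment that lies wholly within shared sequence cannot be placed in one gene by sequence, so the split of reads between AKR1C1 and AKR1C2 is uncertain and their sum is given beside them. The 60 coding bases in which the pair differs most, bases 103 to 162 of the coding sequence in GENCODE v29, hold 10 of the 19 differences and are shown with the differing bases in capitals.

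AKR1C1: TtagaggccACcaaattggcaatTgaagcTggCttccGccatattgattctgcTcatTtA

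AKR1C2: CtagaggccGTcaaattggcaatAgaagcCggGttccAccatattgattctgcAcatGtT

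The start regions of the AKR1C genes are alike as well. Windows of 300 bases, from 250 before to 50 after each gene's start, were taken from RefSeq (GRCh38.p14) and matched 9 of the 10 members, all but AKR1B10. They are shown for the AKR1C genes because AKR1C1, AKR1C2 and AKR1C3 were each higher in a treated library. The windows of AKR1C1 and AKR1C2 had 288 identical bases of 292 aligned, or 98.6%, although the genes lie on opposite strands. AKR1C3 has 2 listed starts. The window of the first, which is shown, was 78.0% identical to that of AKR1C1, and that of the second, not shown, 79.5%. The window of AKR1C4 was 69.6% identical to that of AKR1C1. Capitals mark the CCAAT box, searched as CCAAT on both strands and so also read as ATTGG, and the core of the antioxidant response element, searched as TGANNNNGC on both strands.

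AKR1C1, chr10:4963165-4963464, plus strand: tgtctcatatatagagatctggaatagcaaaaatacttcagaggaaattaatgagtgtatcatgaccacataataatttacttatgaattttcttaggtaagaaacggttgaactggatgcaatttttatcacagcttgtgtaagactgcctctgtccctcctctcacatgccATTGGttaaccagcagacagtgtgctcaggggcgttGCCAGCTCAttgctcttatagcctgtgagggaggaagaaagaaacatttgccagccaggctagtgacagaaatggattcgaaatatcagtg

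AKR1C2, chr10:5003808-5004107, minus strand: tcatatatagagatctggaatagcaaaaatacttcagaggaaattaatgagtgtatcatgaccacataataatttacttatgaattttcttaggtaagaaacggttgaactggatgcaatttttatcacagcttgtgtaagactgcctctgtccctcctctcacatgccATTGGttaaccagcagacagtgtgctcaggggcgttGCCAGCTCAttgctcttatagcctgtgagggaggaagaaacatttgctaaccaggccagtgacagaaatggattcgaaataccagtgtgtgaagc

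AKR1C3, chr10:5048531-5048830, plus strand: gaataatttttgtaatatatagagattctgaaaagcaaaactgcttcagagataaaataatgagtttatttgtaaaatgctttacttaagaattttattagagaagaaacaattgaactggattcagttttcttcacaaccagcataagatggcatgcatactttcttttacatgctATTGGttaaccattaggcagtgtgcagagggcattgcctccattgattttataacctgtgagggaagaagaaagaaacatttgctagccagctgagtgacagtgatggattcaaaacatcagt

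AKR1C4, chr10:5196587-5196886, plus strand: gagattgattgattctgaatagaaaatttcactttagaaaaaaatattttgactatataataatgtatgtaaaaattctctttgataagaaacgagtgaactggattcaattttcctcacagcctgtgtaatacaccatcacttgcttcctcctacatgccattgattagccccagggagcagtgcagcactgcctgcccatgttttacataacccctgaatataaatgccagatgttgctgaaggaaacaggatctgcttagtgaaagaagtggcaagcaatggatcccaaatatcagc

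A CCAAT box was found in the windows of AKR1C1, AKR1C2, AKR1C3 and AKR1B1, and in 34.6% of all 35116 RefSeq windows of this length. In AKR1C1 it began at position -77, counted from -1 as the last base before the start. The response element core was found once in AKR1C1, at -41, and once in AKR1C2, at -45, as the same letters GCCAGCTCA. It was also present in AKR7A2 and AKR7A3, and 41.8% of all windows hold it. The letters of an AP-1 site, TGANTCA, were in 0 of the members' windows and in 7.71% of all windows. A TATA box, TATAAA on either strand, was in AKR1C3 and AKR1C4 and in 11.5% of all windows. In AKR1C3 it was in the window of the first start and not in that of the second. The 4 patterns do not overlap each other in the windows shown. These matches are descriptions of the letters and not of binding.

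In the control library the family was led by 2 general detoxifying enzymes. AKR1A1, aldehyde reductase, stood at 115 FPKM and AKR7A2, a reductase of succinic semialdehyde and aflatoxin aldehydes, at 22.6 FPKM. AKR1C1 followed at 11.3 FPKM, and the remaining 7 members were between 0.201 and 2.82 FPKM. AKR1A1 made up 73.0% of the summed level of all 10 genes, and AKR1C1 with AKR1C2 made up 8.91%. In the HKR3 library these shares were 36.7% and 44.5%, and in the library labelled siTERT 53.8% and 24.8%. The sum of all 10 genes was 158 FPKM in the control, 221 with HKR3 and 171 under the siTERT label. Without AKR1A1 and AKR7A2 the sum was 20.2, 123 and 60.7 FPKM.

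**Figure D1:**
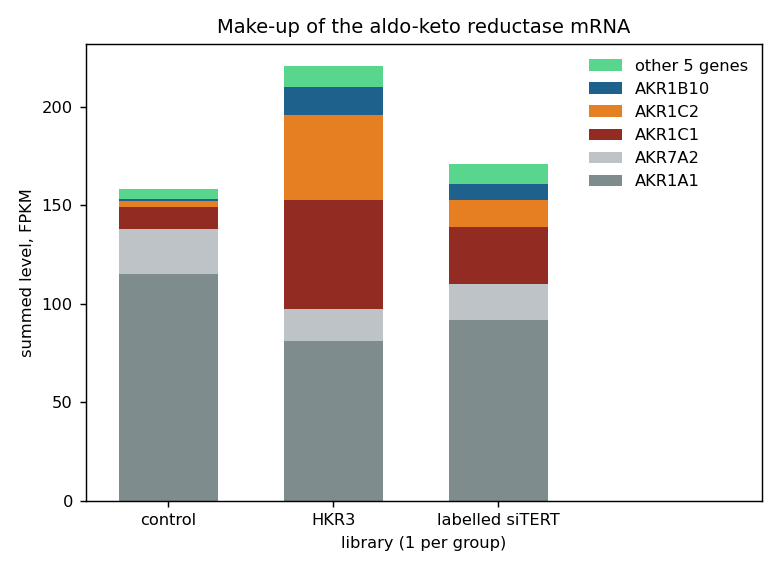
Stacked bars give the level of each aldo-keto reductase in FPKM in the 3 libraries, 1 per group, with AKR1B1, AKR1C3, AKR1C4, AKR1D1 and AKR7A3 drawn as one segment. AKR1C1 and AKR1C2 together hold 8.91% of the bar in the control, 44.5% with HKR3 and 24.8% under the siTERT label.

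The first comparison asked which members differed between the HKR3 library and the control. A difference is the log2(FPKM + 1) of one library minus that of the other, a scale that understates changes of weakly expressed genes, and a gene was called at 2-fold or more. Of the 10 members, 9 had a mean of at least 1 FPKM and entered this comparison, with AKR7A3 below it. AKR1C3 and AKR1C4 were under 1 FPKM in the control and reached that mean only through the treated libraries, where they were higher. AKR1B10, AKR1C1, AKR1C2 and AKR1D1 were at least 2-fold higher, which is 4 of 9, beside 5.52% of the 10974 genes tested. No member was 2-fold lower, 0 of 9, beside 2.52% of all genes. The members' median difference was 0.83, and that of all tested genes was -0.02. The family was chosen on its differences from the control, so nothing is read from these shares and medians, or from the shares, medians and ranks that follow.

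Under the siTERT label, AKR1B10, AKR1C1, AKR1C2 and AKR1C3 were at least 2-fold higher than in the control. This is 4 of 9, beside 0.282% of all genes, and 0 of 9 were 2-fold lower, beside 0.200%. AKR1C3 is in that count only because its treated values carried it past the filter on the mean. The median difference of the members was 0.80 and that of all tested genes -0.01. Both comparisons use the same control library, so a low or high value there moves both in the same direction. Set directly against the library labelled siTERT, the HKR3 library had 1 of 9 members at least 2-fold higher, AKR1C2, beside 4.11% of all genes, and 0 of 9 lower, beside 1.38%. With the libraries scaled to the same FPKM sum, AKR1C1 passed as well and the count was 2.

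**Figure D2:**
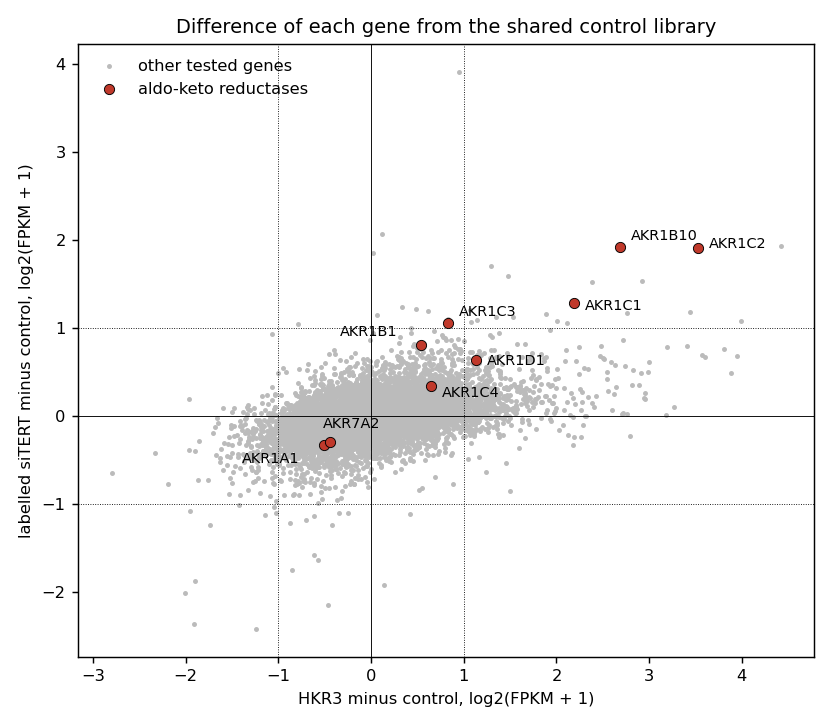
Each point is a gene, placed by its difference in log2(FPKM + 1) from the control in the HKR3 library (horizontal) and in the library labelled siTERT (vertical), with dotted lines at 2-fold and ZBTB48 left out for scale. AKR1B10, AKR1C1 and AKR1C2 lie past 2-fold on both axes and AKR1A1 and AKR7A2 lie below 0 on both, and the axes share the control library.

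AKR1C2, type 3 3-alpha-hydroxysteroid dehydrogenase, which inactivates dihydrotestosterone, was at 2.82 FPKM in the control, 43.1 with HKR3 and 13.3 under the siTERT label. The control was lowest and the HKR3 library highest. The ratio to the control was 15.3 in the HKR3 library, with a 95% counting interval from 10.4 to 23.1, and 4.73 in the library labelled siTERT, from 3.11 to 7.32. Among the 10974 tested genes its difference ranked 9 from the top in the HKR3 library and 5 from the top in the library labelled siTERT.

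AKR1C1, the 20-alpha-hydroxysteroid dehydrogenase that inactivates progesterone, was at 11.3 FPKM in the control, 55.2 with HKR3 and 29.1 under the siTERT label. The order of the libraries was that of AKR1C2, with smaller ratios. The ratio to the control was 4.89 in the HKR3 library, from 4.0 to 6.06, and 2.58 in the library labelled siTERT, from 2.08 to 3.24. The deposited levels put AKR1C1 at 4.0 times AKR1C2 in the control, 1.28 times with HKR3 and 2.18 times under the siTERT label. How far the assignment of shared reads moves this ratio was not tested, and the counting intervals take each gene's reads as assigned without error.

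The sum of AKR1C1 and AKR1C2 keeps the reads of the pair together. FPKM divides reads by the length of each gene, so the split can still move the summed value, and by how much was not tested. It was 14.1 FPKM in the control, 98.3 with HKR3 and 42.4 under the siTERT label. The differences were 2.72 and 1.52 in log2, and the counting intervals of the ratios, 5.84 to 8.38 and 2.48 to 3.67, did not overlap. In the HKR3 library the sum was 2.32 times that under the siTERT label, from 2.07 to 2.59.

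AKR1C3, the type 5 17-beta-hydroxysteroid dehydrogenase that makes testosterone and prostaglandin F, was weakly expressed. It was at 0.255 FPKM in the control, 1.23 with HKR3 and 1.62 under the siTERT label. Here the library labelled siTERT was the highest, unlike AKR1C1 and AKR1C2. The control value corresponds to about 3 fragments, and the counting intervals of the ratios were 1.07 to 21.4 in the HKR3 library and 1.54 to 28.3 in the library labelled siTERT. The interval between the treated libraries, 0.328 to 1.61, includes 1, so their order was not detectable at this depth. AKR1C4, a bile acid and steroid dehydrogenase found mainly in liver, was at 0.833, 1.88 and 1.33 FPKM in the control, the HKR3 library and the library labelled siTERT. Its differences from the control, 0.65 and 0.34 in log2(FPKM + 1), were under 2-fold. The plain FPKM ratio in the HKR3 library was 2.26, with a counting interval of 1.01 to 6.18. In the library labelled siTERT the interval, 0.643 to 4.52, includes 1.

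The genes that flank the AKR1C cluster showed little signal. By gene order in RefSeq (GRCh38.p14), the nearest listed gene before AKR1C1 is AKR1E2, another family member, which was listed at 0 in every library. The nearest after AKR1C4 is UCN3, a peptide hormone gene, at 0.173, 0.164 and 0 FPKM in the control, the HKR3 library and the library labelled siTERT.

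AKR1B10, a reductase of retinal and other aldehydes, lies on chromosome 7 beside AKR1B1 and AKR1B15. It was at 1.42 FPKM in the control, 14.5 with HKR3 and 8.16 under the siTERT label. The control was the lowest, and the HKR3 library was 1.78 times the library labelled siTERT, from 1.36 to 2.35 by counting. The ratio to the control was 10.3 in the HKR3 library, from 5.81 to 18.8, and 5.75 in the library labelled siTERT, from 3.18 to 10.7. Both ratios rest on about 14 estimated fragments in the control. The difference of AKR1B10 ranked 32 from the top of all tested genes in the HKR3 library and 4 from the top in the library labelled siTERT. AKR1B10 has 21.7% of its 31-base words in AKR1B15, which was at 0, 0.135 and 0.0696 FPKM.

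AKR1B1, aldose reductase, which turns glucose into sorbitol, is 76.1% identical to AKR1B10 in coding sequence, and its ratios to the control were smaller. It was at 2.22 FPKM in the control, 3.67 with HKR3 and 4.62 under the siTERT label. Both treated libraries were above the control. The difference in log2(FPKM + 1) under the siTERT label, 0.80, was the larger but under 2-fold, while the plain FPKM ratio was 2.08. Between the treated libraries the counting interval, 0.498 to 1.22, includes 1, so their order was not detectable at this depth. Under the siTERT label the counting interval of the ratio to the control was 1.26 to 3.77, while that of the HKR3 library, 0.961 to 2.99, includes 1. The ratio of AKR1B10 to AKR1B1 was 0.640 in the control, 3.96 with HKR3 and 1.77 under the siTERT label. Of the genes on either side, SLC35B4, a nucleotide sugar transporter, had differences of -0.19 and 0.13, and BPGM, bisphosphoglycerate mutase, of 1.03 and -0.02, in the HKR3 library and the library labelled siTERT.

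AKR1D1, the liver 5-beta-reductase of bile acid synthesis, was at 1.18 FPKM in the control, 3.79 with HKR3 and 2.39 under the siTERT label. Both treated libraries were above the control. The difference in log2(FPKM + 1) in the HKR3 library, 1.14, lay just past 2-fold. The plain FPKM ratio there was 3.21, with a counting interval of 1.63 to 6.58. In the library labelled siTERT the interval, 0.947 to 4.27, includes 1. With a pseudocount of 5 FPKM the difference in the HKR3 library was 0.51.

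AKR1A1 and AKR7A2, the highest members in the control, were lower in both treated libraries. AKR1A1 was at 115 FPKM in the control, 81.1 with HKR3 and 92.0 under the siTERT label, ratios of 0.703, from 0.643 to 0.768, and 0.797, from 0.731 to 0.869. AKR7A2 was at 22.6, 16.3 and 18.2 FPKM, ratios of 0.724, from 0.597 to 0.875, and 0.806, from 0.668 to 0.972. For both genes the control was the highest and the HKR3 library the lowest, and the differences, -0.50 and -0.32 for AKR1A1 and -0.44 and -0.30 for AKR7A2, stayed under 2-fold. With the libraries scaled to the same FPKM sum the differences were smaller. They were then -0.35 and -0.28 for AKR1A1 and -0.30 and -0.26 for AKR7A2. The intervals given here are on FPKM as deposited and were not computed on that scale. AKR7A3, which is 85.0% identical to AKR7A2 in coding sequence and reduces aflatoxin aldehydes, was at 0.201, 0.0590 and 0.185 FPKM, at most 2 estimated fragments in any library, and no fold is given.

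**Figure D3:**
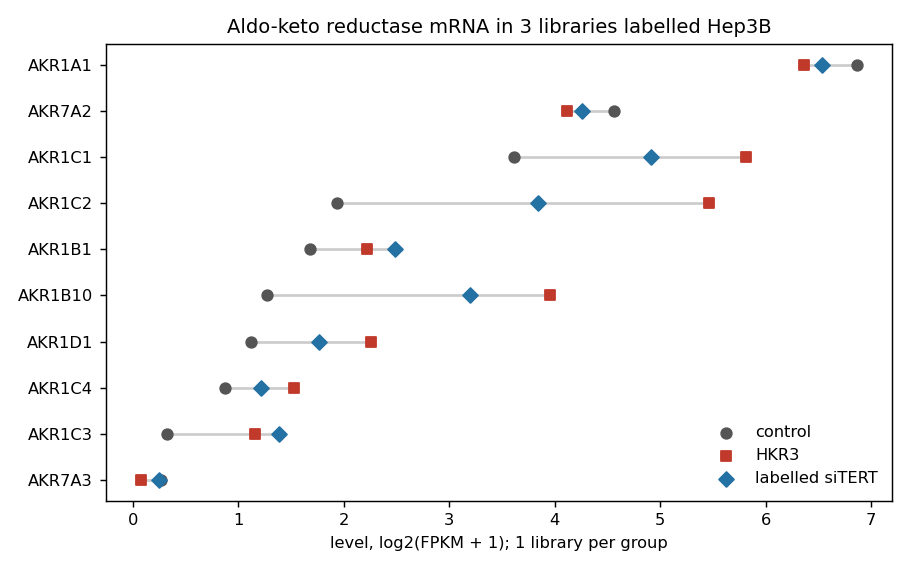
The level of each of the 10 genes is plotted as log2(FPKM + 1) on the horizontal axis, ordered by the control, with 1 symbol per library and a line over their range. The control is the lowest symbol for AKR1B1, AKR1B10, AKR1D1 and all 4 AKR1C genes and the highest for AKR1A1, AKR7A2 and AKR7A3.

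The members were also counted by whether the counting interval included 1. No share over all genes was computed for this, so nothing is read from these counts. In the HKR3 library the interval of the ratio to the control lay above 1 for 6 of the 10 members, below 1 for 2 and included 1 for 2. In the library labelled siTERT it lay above 1 for 5, below 1 for 2 and included 1 for 3. Between the HKR3 library and the library labelled siTERT it lay above 1 for 3, AKR1B10, AKR1C1 and AKR1C2. It lay below 1 for AKR1A1 alone and included 1 for the other 6, on FPKM as deposited. With the libraries scaled to the same FPKM sum, the AKR1A1 difference between them was -0.07 rather than -0.18 in log2(FPKM + 1). Intervals were not computed on that scale. In the HKR3 library against the control, AKR1C4 and AKR1C3 lay above 1 only narrowly, with lower limits of 1.01 and 1.07.

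**Figure D4:**
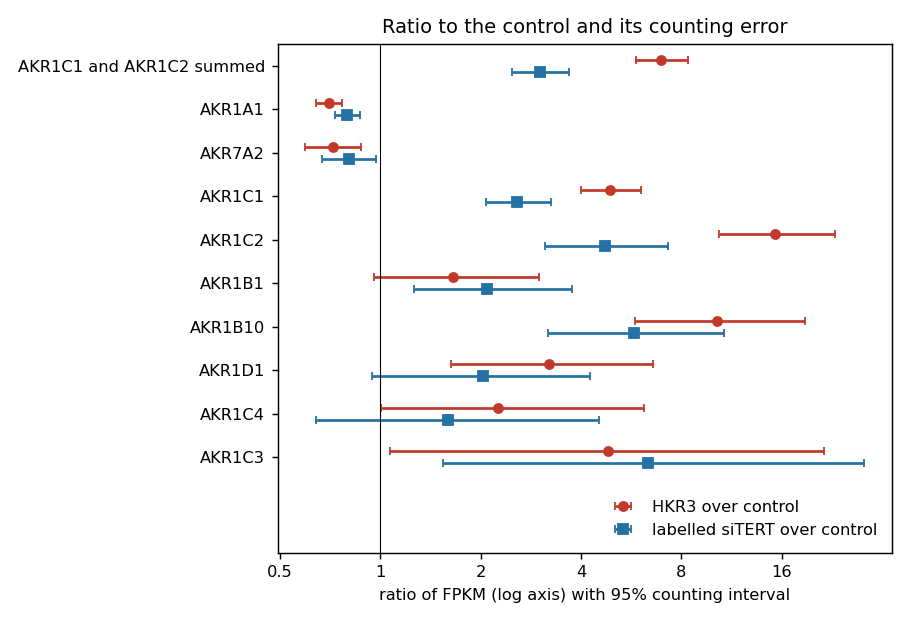
Points give the ratio of FPKM to the control on a log axis and bars the exact binomial 95% interval of estimated fragments, for 9 members and for AKR1C1 and AKR1C2 summed, with AKR7A3 left out. The intervals of the sum, 5.84 to 8.38 in the HKR3 library and 2.48 to 3.67 in the library labelled siTERT, do not overlap, and those of AKR1C3 are the widest.

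Other branches of the superfamily were weakly expressed or listed at 0. Of AKR1B15, AKR1E2, AKR1C8, AKR7L and the potassium channel beta subunits KCNAB1, KCNAB2 and KCNAB3, 5 were matched in the table and 0 reached a mean of 1 FPKM. The highest was KCNAB2, at 1.04, 0.399 and 0.559 FPKM in the control, the HKR3 library and the library labelled siTERT.

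NRF2 system genes outside the family were higher in part in the HKR3 library. This list and those that follow were chosen with earlier results of these data known, so nothing is read from their shares and medians. Of 35 such genes, 12 were at least 2-fold higher, beside 5.52% of all tested genes, and 0 lower, beside 2.52%, with a median difference of 0.40 against -0.02 for all genes. In the library labelled siTERT 0 were higher, beside 0.282%, and 0 lower, beside 0.200%, and the median was 0.12. Between the treated libraries 6 were 2-fold higher with HKR3, beside 4.11%, and 0 lower, beside 1.38%. The small MAF proteins, which pair with NRF2 on DNA, were among the highest. MAFF was at 8.47 FPKM in the control and 53.2 in the HKR3 library, MAFK at 6.85 and 35.1, and MAFG at 6.48 and 28.9. In the library labelled siTERT these 3 genes were at 13.9, 7.64 and 6.99 FPKM. GCLC, the catalytic subunit of glutathione synthesis, was at 11.1, 47.7 and 16.6 FPKM in the control, the HKR3 library and the library labelled siTERT. UGDH, which makes UDP-glucuronate, was at 83.2, 229 and 113 FPKM, and SQSTM1, the autophagy receptor p62, at 385, 1037 and 482 FPKM. Outside the naming rule, the genes of the list named from here on were chosen after their values were seen. NFE2L2, which encodes NRF2, was at 135, 249 and 187 FPKM, and KEAP1, its inhibitor, at 48.6, 59.5 and 48.9. Classical targets of NRF2 did not share a direction in the HKR3 library. SRXN1 and TXNRD1, of the thiol redox system, differed from the control by 1.40 and 1.23. GCLM, the other subunit of glutathione synthesis, differed by 0.84, HMOX1, heme oxygenase, by 0.64, and NQO1, a quinone reductase, by -0.46. The lowest differences of the list in the HKR3 library were those of NQO2, PRDX1 and TXN, at -0.77, -0.67 and -0.54. Of the 35 genes, 24 were above the control there. The part of NRF2 in the AKR levels was not tested.

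Transcription factors reported for AKR genes gave 7 of 22 at least 2-fold above the control in the HKR3 library, beside 5.52% of all genes, and 0 below it, beside 2.52%. The median was 0.49. In the library labelled siTERT 0 of 22 were higher, beside 0.282%, and 0 lower, beside 0.200%, with a median of 0.16. JUN, an AP-1 subunit, was at 8.49, 146 and 14.2 FPKM in the control, the HKR3 library and the library labelled siTERT, and FOS, its partner, at 2.72, 17.9 and 3.32. JUNB was at 16.8, 60.3 and 22.7 FPKM and FOSL1 at 3.37, 11.1 and 4.15. AHR, the aryl hydrocarbon receptor, was at 14.8, 51.4 and 23.5 FPKM, and NR3C1, the glucocorticoid receptor, at 2.85, 10.9 and 3.73. Not all factors were higher, and 16 of the 22 were above the control in the HKR3 library. The lowest differences there, named outside the naming rule, were those of CEBPA, HNF4A and NR1H4, at -0.66, -0.37 and -0.22. Whether any of these factors had a part in the AKR levels was not tested.

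Other enzymes that act on the same kinds of substrate were counted in the same way. Of 30 measured carbonyl and aldehyde enzymes, 1 was at least 2-fold above the control in the HKR3 library, beside 5.52% of all genes, and 3 were below it, beside 2.52%. The median was -0.54. DHRS3, a retinal reductase, was at 20.7 FPKM in the control and 52.7 in the HKR3 library. ADH6, an alcohol dehydrogenase, was at 8.39 and 2.28 FPKM, CBR1, carbonyl reductase, at 45.9 and 22.4, and PTGR2, a prostaglandin reductase, at 14.5 and 6.72, the last 2 just past 2-fold at -1.01 and -1.0. In the library labelled siTERT 0 of the 30 were higher, beside 0.282%, and 0 lower, beside 0.200%, and the median was -0.06. ALDH3B1, an aldehyde dehydrogenase, was at 5.83 FPKM with HKR3 and 14.3 under the siTERT label. Of 22 measured steroid and bile acid enzymes, 0 passed 2-fold in log2(FPKM + 1) in either treated library, with medians of -0.20 and 0.04. The shares of all genes, higher and lower, were 5.52% and 2.52% with HKR3 and 0.282% and 0.200% under the siTERT label, so a count of 0 among 22 lies near them. CYP27A1, a sterol 27-hydroxylase, was at 15.9, 7.68 and 14.1 FPKM, and HSD17B14 at 7.79, 15.2 and 12.5, in the control, the HKR3 library and the library labelled siTERT.

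**Figure D5:**
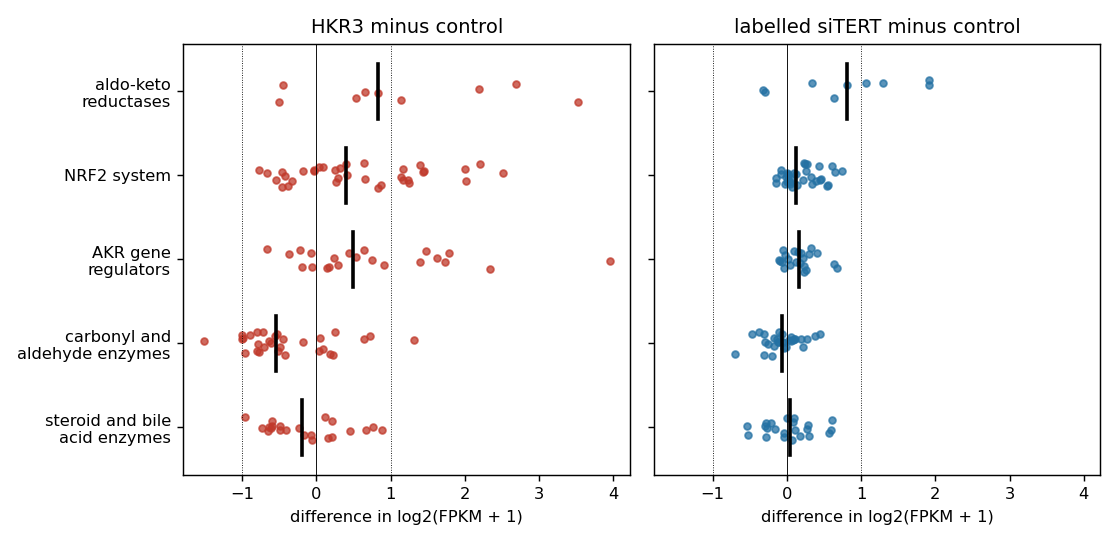
Each point is a gene with a mean of at least 1 FPKM, placed by its difference from the control in log2(FPKM + 1) in the HKR3 library (left) or the library labelled siTERT (right), with a bar at each list's median and vertical scatter for legibility only. The aldo-keto reductases have medians of 0.83 and 0.80, the NRF2 system genes 0.40 and 0.12 and the carbonyl and aldehyde enzymes -0.54 and -0.06. The aldo-keto reductases were chosen on these same differences, so their medians are not a comparison with the lists. The lists were chosen with earlier results of these data known, so their medians are a description as well.

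Genes with the most similar pattern were sought by the distance between their 2 differences from the control and those of the reference, over 3 libraries that share the control. Nearest to both AKR1B10 and the sum of AKR1C1 and AKR1C2 was ENSG00000272772, at 0.00167, 6.62 and 1.90 FPKM in the control, the HKR3 library and the library labelled siTERT. Its control value was near 0, so its place depends on the 1 FPKM added to each value. IL32, a cytokine gene, came next for both, at 6.16, 36.4 and 19.6 FPKM, with distances of 0.49 from AKR1B10 and 0.33 from the sum. CDKN2B, encoding the cell cycle inhibitor p15, stood in place 3 for both, at 4.24, 34.4 and 10.8 FPKM. RPS10-NUDT3, a read-through gene, and RELB, an NF-kB subunit, completed the 5 nearest to AKR1B10, at larger distances of 1.04 and 1.05. RPS10-NUDT3 was at 8.36e-05, 3.34 and 1.08 FPKM in the control, the HKR3 library and the library labelled siTERT, so the added 1 FPKM decides its place too. RELB and MYOF, a membrane repair protein, completed those nearest to the sum. With 3 libraries this likeness is a description of position in the plot of differences and no more.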

How the data were processed

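Messenger RNA was sequenced in 3 libraries made with a stranded mRNA kit, 1 per group, grouped by their titles and treatment labels. The deposited table gives FPKM per gene, calculated by the authors. STAR 2.5.0, Cufflinks, Cuffdiff 2.2.1 and the hg19 build are named in the submitters' processing notes. The sources used here do not give the annotation, the strand setting, filters, any scaling between libraries or how reads that fit several genes were handled. The last of these can shift values between AKR1C1 and AKR1C2.

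The table holds 19869 entries. Symbols were matched by Ensembl identifier for 19310, 4 short RNA entries were left out, and of the rest 6 entries that share a symbol were summed to 3 genes, which left 19862. Differences were computed as log2(FPKM + 1), so with 1 FPKM added to each value, over the 10974 genes whose mean over the 3 libraries reached 1 FPKM, and called at 2-fold. No test was possible with 1 library per group. The numbers of fragments were estimated from single-transcript genes of at least 1000 bases in GENCODE v29, by the FPKM worth of 1 fragment, and rest on 69, 67 and 72 genes within 25% of that worth in the control, the HKR3 library and the library labelled siTERT. Counting intervals are exact binomial limits at 95% on fragments estimated with each gene's coding length, which is shorter than its transcript. The fragments are therefore underestimated, and as limits of counting error the intervals are too wide rather than too narrow. They do not cover differences between cultures or errors in assigning shared reads, and for AKR1C1 and AKR1C2 the latter can make them too narrow.

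The members and gene lists were chosen with earlier results of these data known. The named genes were the 10 members, up to 6 genes of each list past 2-fold in any comparison (or the 2 with the largest difference), the 5 genes of most similar pattern, the cluster neighbours, ZBTB48 and TERT. The lists were other superfamily genes, steroid and bile acid enzymes, other carbonyl and aldehyde enzymes, NRF2 system genes, reported regulators and cell markers. Coding sequences were aligned globally with Biopython 1.88. Python 3.11.15, pandas 2.3.3 and SciPy 1.17.1 were used, and the calculations were tested on simulated data. Alternatives were other pseudocounts, 2 rescalings, other filters and counting AKR1C1 and AKR1C2 as 1 gene. A result on a withheld item is not reported here.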

Additional observations from a re-analysis of the deposited data

How the results depend on the processing

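The count of members at least 2-fold higher stayed between 3 and 6 in the HKR3 library and between 3 and 5 in the library labelled siTERT under all 7 alternatives, and AKR1B10 and the AKR1C1 and AKR1C2 pair (or its sum) were called under each of them. The count of members 2-fold lower was 0 throughout. Scaling every library to the same FPKM sum shifted the all-gene median difference by 0.14 (log2) in the HKR3 library against the control and by 0.10 against the library labelled siTERT, and the number of members at least 2-fold higher there than in the library labelled siTERT was then 2 rather than 1, with AKR1C1 at 1.01. Of 120 values of single members under 4 alternatives, 0 changed sign, 4 newly passed 2-fold and 2 no longer did. With a pseudocount of 0.1 FPKM, AKR1C3 and AKR1C4 passed in the HKR3 library, at 1.91 and 1.09, and AKR1B1 in the library labelled siTERT, at 1.03. With a pseudocount of 5 FPKM, AKR1C3 in the library labelled siTERT was at 0.33 and AKR1D1 in the HKR3 library at 0.51. No paired analysis was possible because each group has 1 library, and no library could be left out. Depth limits AKR1C3, AKR1C4, AKR1D1 and AKR7A3, which had at most 12 estimated fragments in the control. AKR1B10 and AKR1B1 were limited as well, with 14 and 21 there.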
